A study of Mus musculus with 6 samples.

Results

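Nnt and 9 other genes for mitochondrial NADPH supply and peroxide removal were followed through the left ventricles of 6 mice, of which 3 lacked cytoglobin in all tissues (Cygb(-/-)) and 3 were wild-type littermates (Cygb(+/+)). The genes were found by symbol, and all 10 were present among the 13384 genes of the count table. Every adult mouse, in both genotypes, carried a pump under the skin and received angiotensin II from it over 2 weeks, in a dose of 1.5 mg/kg/day, so no value here describes a heart without it. Polyadenylated RNA of each single animal was sequenced, and the sources used here name neither a strain or substrain nor the mice's sex. Nnt was chosen by its measured level in each library and the other 9 were set beside it by name, at a time when results of the knockout and wild-type comparison were known. Their values in that comparison are therefore a description, and none of them is given a p-value.

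Mitochondria need NADPH to remove the hydrogen peroxide that respiration produces, and heart muscle is unusually rich in mitochondria. Nicotinamide nucleotide transhydrogenase, the product of Nnt, sits in the inner membrane and uses the proton gradient to pass hydride from NADH to NADP+. Idh2, Me3 and Glud1 encode matrix dehydrogenases that can also make NADPH. That NADPH is spent by glutathione reductase (Gsr) and by thioredoxin reductase 2 (Txnrd2), which recharge glutathione, thioredoxin 2 (Txn2) and, through it, the peroxiredoxins Prdx3 and Prdx5, while Sod2 makes peroxide from superoxide. Nnt is also a well-known difference between C57BL/6 substrains. C57BL/6J mice carry an allele that lacks an internal run of exons and makes no working enzyme, whereas C57BL/6N mice carry the intact gene.

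The mm10 reference was itself built from C57BL/6J. In GRCm38 (GENCODE M21) Nnt lies on the minus strand of chromosome 13 from 119335448 to 119408997, is protein-coding, and its longest coding transcript has 17 exons with 2505 coding bases. The missing run belongs between exons 6 and 7 of that reference transcript. The junction is shown because it marks where this build, named for the deposited counts, lacks those exons. The lower-case bases end exon 6 (chr13:119386579-119386608), and the capitals open exon 7 (chr13:119381834-119381863), both read 5′ to 3′ along the transcript.
Nnt exon 6 to exon 7: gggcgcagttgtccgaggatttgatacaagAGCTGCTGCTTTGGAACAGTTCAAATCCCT
Reads from the missing exons have no sequence to map to in that build. A whole-gene count on that build therefore does not by itself identify the intact or the shortened allele. The allele of these mice was not tested. GENCODE M21 holds 2 gene records of that name at this place, and the counts have 1 entry for it.

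The libraries held 23190864 to 30354857 counts, and each gene of interest had at least 600 counts in each of them, so counting error was 4.08% or less per value. Cygb was not analysed here, and the genotypes are those of the labels. The marker genes fixed for heart muscle were abundant throughout, with summed levels of 63445 to 72068 CPM (counts scaled to library size and TMM factors) in the knockout and 64114 to 81438 CPM in the wild type. Wild-type replicate 1 stood apart by its atrial markers, Myl7, Myl4 and Sln, which summed to 753 CPM there. Their sum was 48.5 CPM in wild-type replicate 2, 75.6 CPM in wild-type replicate 3 and 32.7 to 42.3 CPM in the knockout, so every wild-type library was above every knockout library. Smooth muscle markers summed to 121 to 167 CPM in the knockout and to 170.2 CPM or more in every wild-type library, with 4 of 4 genes lower on average in the knockout, and mesothelial markers to 3.53 to 7.12 CPM against 11.8 to 31.1 CPM, with 2 of 2 lower. Fibroblast markers summed to 822 to 917 CPM against 893 to 1569 CPM and overlapped, with 6 of 6 genes lower on average in the knockout (median log2 ratio -0.46). Endothelial, erythroid and macrophage sums overlapped, with 4 of 5 and 3 of 3 genes lower and 4 of 5 macrophage genes higher (median log2 ratio 0.31). None of these markers passed edgeR's test or limma-voom. An unadjusted edgeR p under 0.05 was reached by 19.2% of all genes. Among the markers, 2 smooth muscle, 2 mesothelial, 2 fibroblast, 2 endothelial and 1 erythroid genes reached it, all lower. The 1 macrophage gene to reach it was higher. DESeq2 called 1 smooth muscle, 1 mesothelial and 2 fibroblast genes lower, against 1.99% of all genes. The part of these markers in the values that follow was not tested. In bulk tissue, fewer cells of a type and less RNA per cell cannot be told apart.

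Nnt was higher in all 3 knockout libraries than in any wild-type library. Its level was 1032, 1006 and 1228 CPM in knockout replicates 1, 2 and 3, and 549, 453 and 774 CPM in wild-type replicates 1, 2 and 3. The genotypes did not overlap, and the lowest knockout value was 1.301 times the highest wild-type value. Group means were 1089 ± 122 CPM in knockout hearts and 592 ± 165 CPM in wild-type hearts (SD, n = 3 each), a 1.84-fold difference (log2 ratio of knockout to wild type 0.88, SE 0.18). Among all genes, 11.8% had every knockout library above every wild-type library, 10.5% had every one below and 22.3% either, and 1.32% had a log2 ratio at least as large as that of Nnt.

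The wild-type animals also differed among themselves. Wild-type replicate 3 had 1.54 times the mean of the other 2 wild-type libraries, and lay between them and the knockouts. The coefficient of variation of Nnt was 27.8% in the wild type, higher than that of 84.5% of the genes with a mean of at least 1 CPM, and 11.2% in the knockout, near the middle of all genes (53.3% were lower). Counting error was at most 0.925% for Nnt, far under the spread of the 3 wild-type libraries. Without wild-type replicate 3 the log2 ratio was 1.12, and without wild-type replicate 2 it was 0.73. Nnt was an abundant transcript in either genotype, ranking 108 of 13384 by its mean CPM.

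**Figure D1:**
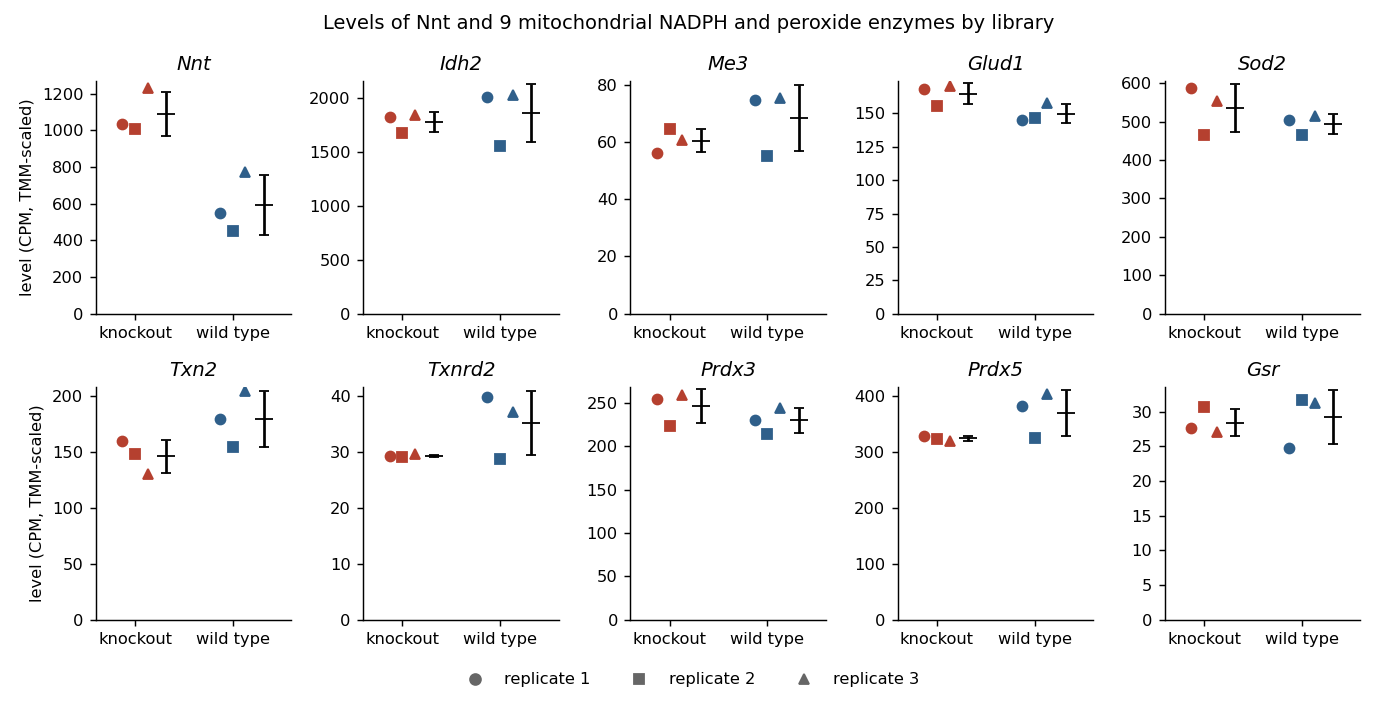
Level in each library (vertical axis, TMM-scaled CPM, starting at 0) of the 10 genes in knockout (red) and wild-type (blue) left ventricles, 1 panel per gene. Symbols mark the replicate number, and the black dash and bar give mean ± SD of 3 libraries. The genotypes are apart for Nnt (1006 to 1228 CPM against 453 to 774 CPM) and overlap for the other 9 genes.

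Of the other enzymes that yield NADPH, none had genotypes apart. Idh2, the NADP-dependent isocitrate dehydrogenase, was at 1831, 1676 and 1843 CPM in knockout hearts and 2011, 1557 and 2029 CPM in wild-type hearts. Wild-type replicate 2 was the lowest of the 6 libraries and the other 2 wild-type libraries the highest, so the genotypes overlapped (log2 ratio -0.065, SE 0.14). Glud1, glutamate dehydrogenase, was at 168, 156 and 171 CPM against 145, 146 and 158 CPM. Only knockout replicate 2 and wild-type replicate 3 crossed (0.14, SE 0.12). Me3, the mitochondrial NADP-dependent malic enzyme, was at 56.3, 64.5 and 60.8 CPM against 74.8, 55.0 and 75.4 CPM (-0.18, SE 0.14), again with wild-type replicate 2 at the bottom.

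Levels were set per kb of the longest coding transcript, to compare genes. Isoform use was not measured, so levels and shares per kb depend on that choice. Idh2 was the leading transcript of the 10, at 1022 ± 53.4 CPM per kb in the knockout and 1069 ± 153 in the wild type. Nnt had 314 ± 35.1 CPM per kb in the knockout and 171 ± 47.5 in the wild type. Its share of the summed level of Nnt, Idh2, Me3 and Glud1 was 21.1%, 22.2% and 24.1% in knockout replicates 1 to 3 and 11.6%, 12.1% and 15.4% in wild-type replicates 1 to 3. Idh2 was 2.98 to 3.52 times Nnt in the knockout and 5.21 to 7.27 times in the wild type. The sum of the 4 genes overlapped between genotypes, at 1398 ± 82.2 CPM per kb against 1299 ± 196, with wild-type replicate 2 lowest at 1078. Both shares and sums carry the Nnt and Idh2 values above, so they are no separate observation.

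**Figure D2:**
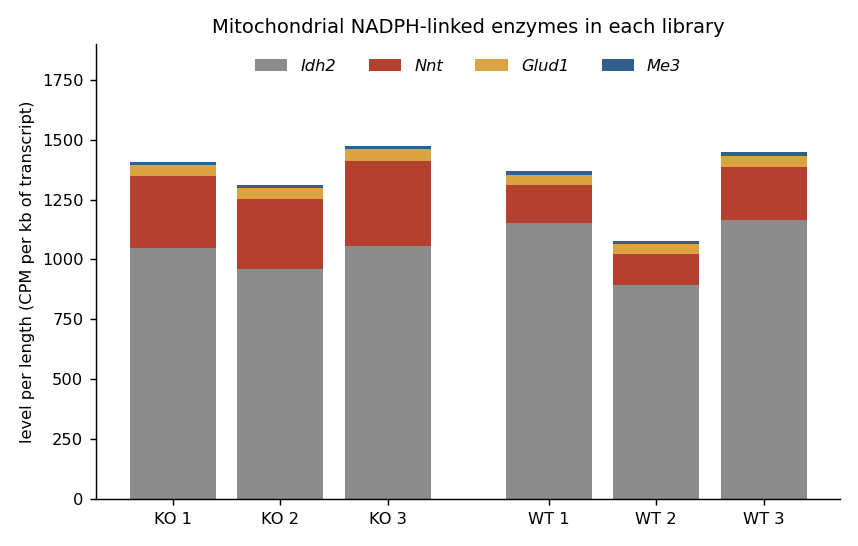
Stacked level per transcript length (vertical axis, CPM per kb) of Idh2 (grey), Nnt (red), Glud1 (yellow) and Me3 (blue) in each library. The red Nnt segment takes 21.1% to 24.1% of the bar in the knockout (KO) and 11.6% to 15.4% in the wild type (WT), while bar heights overlap.

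Among the enzymes that handle superoxide and peroxide, no gene had genotypes apart either. Sod2, the manganese superoxide dismutase of the matrix, was at 588, 465 and 554 CPM in knockout hearts and 505, 465 and 514 CPM in wild-type hearts, a log2 ratio of 0.11 (SE 0.13). Knockout replicate 2 was the lowest of the 6 and the other knockouts the highest. Prdx3, the peroxiredoxin confined to mitochondria, was at 255, 224 and 260 CPM against 231, 215 and 245 CPM (0.098, SE 0.12), and overlapped because knockout replicate 2 was below 2 wild-type libraries. Prdx5, which is found in mitochondria and elsewhere in the cell, was at 330, 324 and 320 CPM against 382, 325 and 405 CPM (-0.19, SE 0.12). Its 3 knockout libraries lay within a coefficient of variation of 1.56%, while wild-type replicates 1 and 3 were above all of them and wild-type replicate 2 among them.

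The thioredoxin pair had the lowest fold changes of the 10 genes. Txn2 was at 160, 149 and 131 CPM in knockout hearts and 180, 155 and 204 CPM in wild-type hearts (-0.30, SE 0.14). Its reductase Txnrd2 was at 29.3, 29.1 and 29.5 CPM against 39.8, 28.8 and 37.1 CPM (-0.26, SE 0.14). In both, wild-type replicates 1 and 3 were above every knockout library and wild-type replicate 2 was not. Gsr, glutathione reductase, was at 27.6, 30.6 and 27.0 CPM against 24.7, 31.7 and 31.2 CPM, with no order by genotype (-0.040, SE 0.14).

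By level per kb, averaged over the 6 libraries, the order was Idh2 (1045 CPM per kb), Prdx5 (276), Nnt (243), Prdx3 (161), Sod2 (87.9), Txn2 (79.6), Glud1 (46.4), Me3 (14.4), Txnrd2 (11.2) and Gsr (10.8). Ranges over libraries were apart for Idh2 and Prdx5, Prdx3 and Sod2, Txn2 and Glud1, and Glud1 and Me3. The other neighbours in that order overlapped. Nnt was above Prdx5 in 3 of 6 libraries, the knockouts, and above Prdx3 in 5, all but wild-type replicate 2. By group means Nnt followed Idh2 in the knockout, and Idh2 and Prdx5 in the wild type.

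No gene of the 10 passed edgeR's quasi-likelihood test at an adjusted p of 0.05 over all genes, where 0.0897% of genes passed as higher in the knockout and 0.0224% as lower. At an unadjusted p under 0.05 there were 2, Nnt and Txn2, against 19.2% of all genes. DESeq2 called 1, Nnt, against 4.62% of all genes (2.63% higher and 1.99% lower). Limma-voom called 0, against 0.105% (0.0672% higher and 0.0374% lower). Since the genes were chosen with this comparison known, nothing is read from these counts. Log2 ratios of 4 genes were above 0 and of 6 below 0, with a median of -0.052. Over all genes 49.4% were above 0 and the median was -0.0045.

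Idh2, Me3, Txn2, Txnrd2 and Prdx5 shared a pattern in which wild-type replicates 1 and 3 were the highest libraries, as they were for 20.3% of all genes. These 2 libraries also differed from the rest by GC content. Genes were put into 4 equal classes of 3153 by the GC content of their transcript. In the class of highest GC content (55.1% or more), the median log2 level relative to the mean of the 6 libraries was above that in the lowest class (45.5% or less) by 0.43 in wild-type replicate 1 and 0.35 in wild-type replicate 3. The same difference was -0.28, -0.093 and -0.24 in knockout replicates 1 to 3 and -0.16 in wild-type replicate 2. Median log2 ratios went from 0.20 in the lowest class to -0.23 in the highest. Transcript GC content was 58.3% for Prdx5, 55.4% for Idh2, 55.0% for Txnrd2 and 53.5% for Txn2, but 47.0% for Me3.

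After both trends, on GC content and on transcript length, had been taken out of each library, Nnt was still apart by genotype, at 1028, 1000 and 1207 CPM in knockout hearts and 541, 456 and 803 CPM in wild-type hearts, a log2 ratio of 0.84 (SE 0.20). Prdx5 and Idh2 changed sign, from -0.19 to 0.095 (SE 0.089) and from -0.065 to 0.12 (SE 0.11). Sod2, which has the lowest GC content of the 10 genes at 42.2% and the longest transcript, went from 0.11 to -0.20 (SE 0.13). Txn2 and Txnrd2 moved closer to 0, to -0.17 (SE 0.11) and -0.12 (SE 0.11), and Me3 moved away from it, to -0.32 (SE 0.15). The directions of Idh2, Sod2 and Prdx5 thus differ between the 2 fits, and those of Nnt, Txn2, Txnrd2, Me3, Glud1, Prdx3 and Gsr do not.

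**Figure D3:**
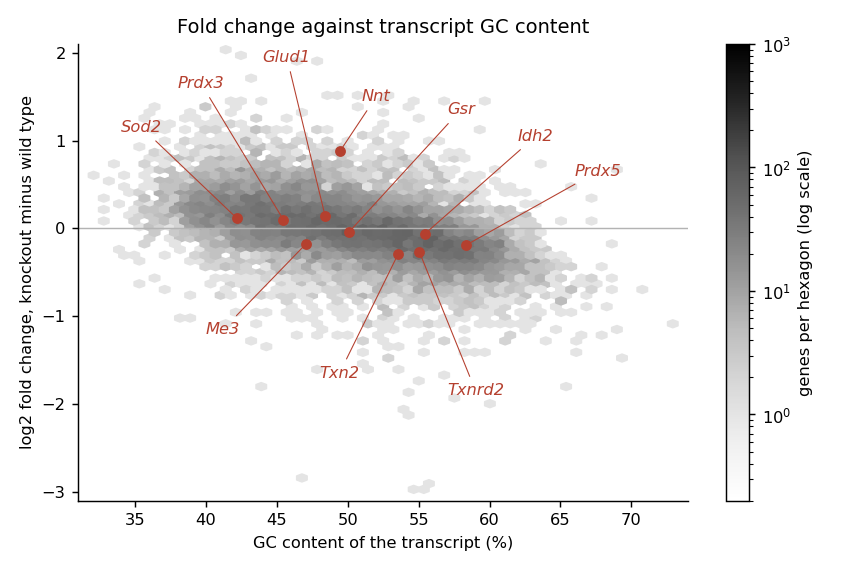
Log2 fold change (knockout minus wild type, the log2 ratio of the text) against transcript GC content for the 12612 genes with a matched transcript, shaded by the number of genes per hexagon, with the 10 enzyme genes in red. The dense part of the cloud falls from left to right, 9 of the 10 genes lie in it, and Nnt lies above it at 49.5% GC and 0.88.

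**Figure D4:**
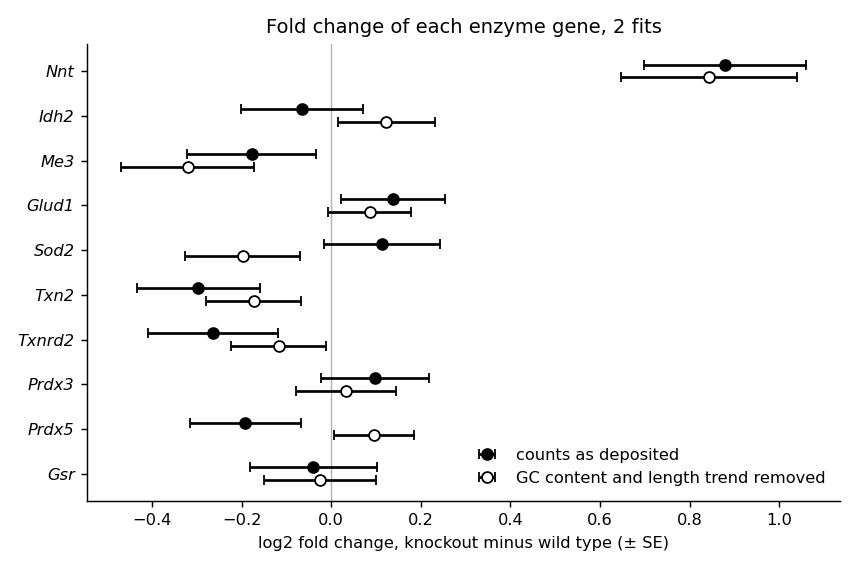
Log2 fold change (knockout minus wild type, with SE) of each gene from the counts as deposited (filled) and with the GC and length trends taken out (open). Nnt is at 0.88 and 0.84, and the other 9 genes lie between -0.32 and 0.14, with Idh2, Sod2 and Prdx5 on different sides of 0 in the 2 fits.

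Other genes of the same pathways were taken from lists and tested over all genes. The lists were chosen with earlier results of these data known, so their p-values are no independent support. The 6 measured genes for other NADP-linked and related enzymes of mitochondria had a median log2 ratio of 0.14, and none passed edgeR's test. At an unadjusted edgeR p under 0.05 there were 0, against 19.2% of all genes, and DESeq2 and limma-voom called 0. Me2, a malic enzyme that uses NAD as well, was at 12.8, 13.2 and 15.3 CPM against 9.72, 11.9 and 11.4 CPM, with genotypes apart (0.33, SE 0.16, edgeR adjusted p = 0.284). Aldh1l2, a folate enzyme that makes NADPH, was at 0.39 (SE 0.20, edgeR adjusted p = 0.307), the mitochondrial NAD kinase gene Nadk2 at 0.21 (SE 0.14, edgeR adjusted p = 0.432) and the serine enzyme gene Shmt2 at -0.19 (SE 0.13, edgeR adjusted p = 0.461). Of the 6, Me2 and Aldh1l2 had every knockout library above every wild-type library, and 0 genes had every one below. The shares over all genes were 11.8% and 10.5%.

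Of 16 measured genes for other thiol, peroxide and methionine sulfoxide functions, 8 were above 0 and 8 below, with a median of -0.0022 and no call by edgeR or limma-voom. At an unadjusted edgeR p under 0.05 there were 4, against 19.2% of all genes. DESeq2 called 1 of them lower, against 1.99% of all genes. That one was Msrb3, a methionine sulfoxide reductase, at 70.7, 66.6 and 58.4 CPM against 107, 125 and 97.0 CPM (a log2 ratio of -0.75, SE 0.14, with an edgeR adjusted p = 0.0562). It passed in 4 of 14 alternatives, with edgeR adjusted p = 0.0119 once the GC and length trends were taken out, in a range of edgeR, DESeq2 and limma-voom adjusted p from 0.000348 to 0.2998. Slc25a39, a carrier for mitochondrial glutathione import, was at -0.40 (SE 0.16, edgeR adjusted p = 0.204), and at -0.070 with those trends taken out. Its relative Slc25a40 was at 0.42 (SE 0.17, edgeR adjusted p = 0.209) and the oxidation resistance gene Oxr1 at 0.33 (SE 0.14, edgeR adjusted p = 0.234). Of the 16, 1 gene, Slc25a40, had every knockout library above every wild-type library, and 2, Msrb3 among them, had every one below. The shares over all genes were 11.8% and 10.5%.

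Outside mitochondria, none of 15 genes for cytosolic NADPH, thioredoxin and glutathione enzymes passed edgeR's test, with a median of -0.053. At an unadjusted edgeR p under 0.05 there was 1, against 19.2% of all genes, and DESeq2 and limma-voom called 0. Idh1, the cytosolic counterpart of Idh2, was at 52.2, 58.8 and 76.8 CPM against 45.1, 51.1 and 51.2 CPM, also apart (0.35, SE 0.15, edgeR adjusted p = 0.236). Cytosolic thioredoxin, Txn1, was at -0.19 (SE 0.12, edgeR adjusted p = 0.428), Prdx2 at -0.19 (SE 0.12, edgeR adjusted p = 0.412) and Me1 at 0.18 (SE 0.12, edgeR adjusted p = 0.430). Of the 15 genes, 3 had every knockout library above every wild-type library and 3 every one below, against 11.8% and 10.5% of all genes. Idh1 and Me1 were among those above and Txn1 among those below. The list of NRF2, the main transcription factor of antioxidant genes, and its classic targets shares members with that list. None of its 14 measured genes passed edgeR's test, with a median of 0.070. Again 1 reached an unadjusted edgeR p under 0.05, beside 19.2% of all genes, and DESeq2 and limma-voom called 0. Nfe2l2, which encodes NRF2, was at 80.1, 65.9 and 70.9 CPM against 51.5, 60.1 and 55.4 CPM, with genotypes apart (0.38, SE 0.13, edgeR adjusted p = 0.152). The glutathione transferase gene Gstm1 was at -0.18 (SE 0.14, edgeR adjusted p = 0.508). Of these 14 genes, 3 had every knockout library above every wild-type library and 1 every one below, beside the same shares of all genes.

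Nuclear genes for proteins common to all mitochondria were summed as an RNA level, and mitochondrial content itself was not measured. The 16 measured genes summed to 12776, 11313 and 12809 CPM in knockout hearts and 12493, 11068 and 12749 CPM in wild-type hearts. Replicate 2 was lowest in each genotype, and the genotypes were not apart. None passed edgeR's test, and the median was 0.075. An unadjusted edgeR p under 0.05 was reached by 1, against 19.2% of all genes, and DESeq2 and limma-voom called 0. Ndufs1, a complex I subunit, was at 0.35 (SE 0.14, edgeR adjusted p = 0.202), Uqcrc2 of complex III at 0.22 (SE 0.13, edgeR adjusted p = 0.370), the cristae protein gene Immt at 0.18 (SE 0.12, edgeR adjusted p = 0.441) and Cox4i1 of complex IV at -0.27 (SE 0.15, edgeR adjusted p = 0.346). The log2 ratios of these 16 genes lay between -0.27 and 0.35, beside 0.88 for Nnt. Of the 16, 1 gene, Ndufs1, had every knockout library above every wild-type library, and 0 had every one below. The shares over all genes were 11.8% and 10.5%.

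Nnt was then set beside other genes known for a sequence, copy number or expression difference among C57BL/6 substrains or colonies. The values of 7 of them are given. This list was also chosen with earlier results of these data known. Its adjusted p-values therefore lend the Nnt values no independent support. Ide, which encodes insulin-degrading enzyme, lies in a segment that varies in copy number. It was the 1 gene of the 7 to pass edgeR's test, against 0.112% of all genes. Limma-voom also called 1, Ide, against 0.105% of all genes. DESeq2 called 2, Ide and Wdfy1, against 4.62% of all genes. Ide was at 132, 146 and 162 CPM in knockout hearts and 86.6, 59.6 and 55.7 CPM in wild-type hearts, a log2 ratio of 1.13 (SE 0.17, with an edgeR adjusted p = 0.0330). The call did not hold once the GC and length trends were taken out (0.88, edgeR adjusted p = 0.103), nor without any 1 knockout library (edgeR adjusted p = 0.0949, 0.0705 and 0.156 without replicates 1, 2 and 3) or wild-type replicate 3 (edgeR adjusted p = 0.0681). Fgfbp3, a small gene 349 kb from Ide on chromosome 19 and known to vary with it, was at 3.51, 4.49 and 4.45 CPM against 3.17, 1.55 and 3.01 CPM (0.68, SE 0.29, edgeR adjusted p = 0.228).

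Wdfy1, on chromosome 1, had knockout libraries close together, at 45.2, 40.1 and 42.6 CPM, and wild-type libraries spread over 28.4, 11.98 and 13.04 CPM. The genotypes were apart, yet the gene did not pass edgeR's test (1.26, SE 0.31, with edgeR adjusted p = 0.109). It passed in 3 of the 14 alternatives, among them DESeq2 on all 6 libraries (1.26, DESeq2 adjusted p = 0.00035) and edgeR without wild-type replicate 1 (1.77, edgeR adjusted p = 0.000328). Over all 14, adjusted p ran from 0.000328 to 0.413. For Nnt the wild-type library nearest the knockouts was replicate 3, and for Wdfy1 and Ide it was replicate 1, so the 3 genes did not rank the wild-type animals alike.

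The other 4 had overlapping genotypes. Among all genes, 11.8% had every knockout library above every wild-type library. Entpd4 was at 0.15 (SE 0.21, edgeR adjusted p = 0.734), Cyfip2 at 0.31 (SE 0.15, edgeR adjusted p = 0.268), Dock2 at 0.41 (SE 0.22, edgeR adjusted p = 0.329) and Mmrn1 at -0.45 (SE 0.37, edgeR adjusted p = 0.537). Mmrn1 was high in wild-type replicate 2 alone, at 22.9 CPM against 7.19 to 12.4 CPM elsewhere, and Entpd4 was highest in replicate 1 of each genotype.

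**Figure D5:**
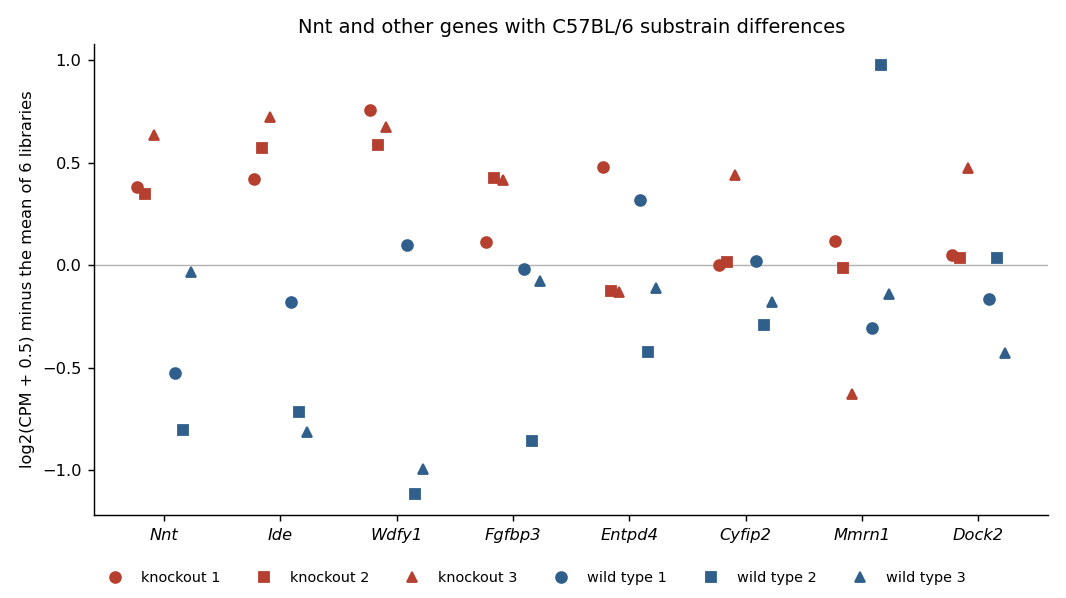
Log2(CPM + 0.5) of Nnt and 7 other genes with known C57BL/6 substrain or colony differences, relative to the mean of the 6 libraries (vertical axis), for knockout (red) and wild-type (blue) replicates 1, 2 and 3. Knockouts are above every wild-type library for Nnt, Ide, Wdfy1 and Fgfbp3, and the wild-type library nearest to them is replicate 3 for Nnt and replicate 1 for Ide and Wdfy1.

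The genes around Nnt did not follow it. Of the 5 nearest measured genes on either side, which were looked up after the Nnt values were known, 4 were above 0 and 6 below, with log2 ratios from -1.06 to 0.58. None of the 10 passed edgeR's test, and DESeq2 and limma-voom called 0. At an unadjusted edgeR p under 0.05 there were 2, against 19.2% of all genes. Paip1, which encodes a partner of the poly(A)-binding protein and starts 93.2 kb from the start coordinate of Nnt, was at 88.5, 80.8 and 79.2 CPM against 73.2, 86.2 and 88.8 CPM (0.0013, SE 0.12, edgeR adjusted p = 0.996).

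Over the whole table, the genes most like Nnt in their pattern over the 6 libraries were Ccl11, Gpr22, Phkg1 and Nr4a3. Likeness was the root mean square difference of log2(CPM + 0.5) profiles, each centred on its own mean, among 13162 genes with a mean of at least 1 CPM. It was 0.11 to 0.14 for these 4, and its median over all genes was 0.54. Phkg1, a glycogen phosphorylase kinase subunit, was at 28.7, 25.4 and 31.1 CPM against 14.1, 12.5 and 16.2 CPM, a log2 ratio of 0.99. Gpr22, an orphan receptor of heart and brain, was at 33.8, 33.1 and 45.6 CPM against 16.3, 17.7 and 26.0 CPM, with a log2 ratio of 0.90 that was 0.49 with the GC and length trends taken out. Ccl11 (the chemokine eotaxin) and the nuclear receptor gene Nr4a3 were lower in level, from 0.504 to 2.87 CPM over the libraries. Their log2 ratios were 1.43 and 1.02, and the 0.5 added before logs were taken shrinks differences at such low levels. All 4 had wild-type replicate 3 highest of the wild-type libraries and knockout replicate 3 highest of the knockouts, as Nnt had. Likeness to Nnt selects for that order and for genotypes that are apart, so these values are a description, with no test. None of the other 9 enzyme genes was near Nnt by this measure, the nearest being Glud1 at 0.44.

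In GRCm38 the other 9 are protein-coding genes too. Idh2 lies on chromosome 7 from 80094846 to 80115392, Me3 on chromosome 7 from 89632392 to 89854359, Glud1 on chromosome 14 from 34310727 to 34345265 and Sod2 on chromosome 17 from 13006846 to 13040063. Txn2 lies on chromosome 15 from 77915047 to 77929006, Txnrd2 on chromosome 16 from 18426384 to 18479073 and Gsr on chromosome 8 from 33652523 to 33698163. Prdx3, from 60864051 to 60874556, and Prdx5, from 6906697 to 6910106, are both on chromosome 19. Prdx5, Txnrd2 and Me3 each overlap a transcript on the opposite strand. Use of strand in counting is not given in the sources used here, so part of their reads could belong to the partner. On the same strand, Idh2 overlaps Gm45203, Me3 overlaps Gm45793 and Gsr overlaps the snoRNA gene Gm24727. Use of strand would not separate such reads.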

How the data were processed

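The authors deposited 1 table of raw counts per gene for 6 libraries, 1 per mouse by the labels, with Entrez identifiers and symbols. mm10 and DESeq2 are named, without versions, per the submitters' processing notes. Not given in the sources used here: aligner, counter, annotation, strandedness of counting. The main test was edgeR's quasi-likelihood test (robust; edgeR 4.0.16, R 4.3.3) on these counts with TMM factors and filterByExpr, which removed 0 of 13384 genes, two-sided, without covariates, with Benjamini-Hochberg adjustment over all genes and a threshold of 0.05. DESeq2 1.42.0 and limma-voom (limma 3.58.1) were alternatives. Standard errors come from the test statistic. Levels are TMM-scaled CPM, and levels per kb use the longest protein-coding GENCODE M21 transcript (the longest transcript for other genes), matched by Entrez identifier. The same transcripts gave GC content and length for 94.2% of genes; each library's trend on both (splines with 4 degrees of freedom per term) entered edgeR as an offset.

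The members and lists were chosen with earlier results of these data known. Named were all 10 members, in each pathway list the genes that passed and the 4 of smallest p, all measured substrain genes and the 5 genes most like Nnt; 1 gene of each of the last 2 sets is not reported here. Listed genes missing from the table were not analysed here. Atp5a1 and Phb were matched under newer symbols. The exact permutation of 3 against 3 libraries cannot go below a p of 0.1 and was not used. The tests were tried on simulated counts with known changes. Whether same-numbered samples are paired could not be told from their deviations, which were centred within groups of 3 libraries.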

Additional observations from a re-analysis of the deposited data

How the results depend on the processing

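edgeR called 12 genes higher and 3 lower in the knockout. With genes under a mean of 5 CPM left out 6 were higher, DESeq2 called 352 higher and 266 lower, limma-voom 5 lower, and edgeR with the GC and length trends taken out gave 25 higher and 23 lower. RLE factors, upper quartile factors and no filter gave 12 and 3. The labels number replicates alike in both genotypes, and the fit with the replicate number as a block called 131 higher and 87 lower. Wdfy1 passed in it (1.37, edgeR adjusted p = 0.00106). Same-numbered libraries deviated from their group means with correlations of -0.13, -0.080 and -0.17 for numbers 1, 2 and 3, and no library correlated best with its own number. Deviations centred within groups of 3 libraries cannot show whether the numbers pair the animals. With 1 library left out, genes higher ran from 0 to 971 and genes lower from 0 to 855, the upper ends without wild-type replicate 2 and the lower ends without knockout replicate 3; the cause was not tested.

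Log2 fold changes of the 10 enzyme genes moved by less than the spread between replicates in 137 of 140 alternative values; the 3 exceptions were Idh2, Sod2 and Prdx5 with those trends taken out, at 0.12, -0.20 and 0.095. That of Nnt stayed between 0.73 and 1.12. Of the genes tested, Shmt2 turned to 0.045 and Cox4i1 to 0.032 with them taken out, Entpd4 turned to -0.0078 without wild-type replicate 2 and ran from -0.088 to 0.37 with 1 library left out, and Mmrn1 from -0.68 to 0.094, the latter without wild-type replicate 2. None of these 4 had passed.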

Other observations

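Several stress-responsive genes of the lists varied more between animals than between genotypes. Hmox1, the heme oxygenase induced by oxidative stress, was at 29.8, 12.6 and 7.32 CPM in knockout replicates 1, 2 and 3 and 5.10, 11.2 and 10.4 CPM in the wild type, a log2 ratio of 0.90 (SE 0.60, with edgeR adjusted p = 0.465), and without 1 library its log2 ratio ran from 0.16 to 1.25. Ucp3, a mitochondrial carrier of muscle and a fatty acid-responsive gene, was at 71.9, 37.3 and 29.5 CPM against 18.6, 18.4 and 44.7 CPM (0.76, SE 0.52, edgeR adjusted p = 0.480). Txnip, which binds thioredoxin, was at 625, 356 and 340 CPM against 267, 411 and 692 CPM (-0.053, SE 0.42, edgeR adjusted p = 0.959). Ucp3 and Txnip were chosen after their values were seen. Knockout replicate 1 and wild-type replicate 3 were the highest libraries of their genotypes for both Ucp3 and Txnip.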
